A study of Homo sapiens with 6 samples.

Results

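The 40 genes described here belong to the integrated stress response and the unfolded protein response, and were picked by gene symbol from the 46427 genes of the deposited count table. Hs578T is a human triple-negative breast cancer cell line, and the study sequenced its RNA to look for genes that depend on CCN3, a secreted matricellular protein. The control cells stably carried a control shRNA (shCTRL, 3 libraries) and the knockdown cells stably carried an shRNA against CCN3 (shCCN3, 3 libraries), delivered by retrovirus and selected with puromycin. No other treatment is named for either group. RNA was sequenced for a single CCN3 shRNA in selected stable cells, so an effect of CCN3 loss, an effect of that shRNA on other transcripts and a difference that arose during selection cannot be told apart. The sample information calls the 3 libraries of a group independent biological replicates.

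In the integrated stress response, kinases such as PERK (EIF2AK3) and GCN2 (EIF2AK4) phosphorylate the translation factor eIF2alpha, which lowers general protein synthesis while translation of the transcription factor ATF4 rises. ATF4 and its partners then induce genes for amino acid synthesis and transport, tRNA charging and feedback on the pathway. In the unfolded protein response, PERK, IRE1alpha (ERN1) and ATF6 sense misfolded proteins in the endoplasmic reticulum (ER), and spliced XBP1 and cleaved ATF6 induce chaperones and the machinery that removes misfolded proteins. The gene counts report mRNA only, so phosphorylation of eIF2alpha, translation of ATF4, splicing of XBP1 and cleavage of ATF6 were not measured.

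The libraries held 56159110 to 68393177 counts. Levels are given as CPM, the counts of a gene relative to the size of its library, with TMM factors that even out differences in library composition. In a library of this size, 3 counts equal 0.0435 to 0.054 CPM, a limit that covers counting error only. CCN3 itself fell from a mean of 101 ± 2.43 CPM to 47.0 ± 0.469 CPM (mean ± SD, 3 libraries each), and its libraries did not overlap. Of the epithelial markers, EPCAM, CDH1 and KRT19 were at most 0.0447, 0.141 and 0.198 CPM, whereas the keratin genes KRT8 and KRT18 were expressed, with KRT8 called lower (17.7 to 21.3 CPM in the controls, 13.5 to 14.7 CPM after knockdown) and KRT18 called higher (156 to 171 CPM in the controls, 212 to 263 CPM after knockdown). The leukocyte marker PTPRC was at most 0.203 CPM. Among markers of other cell types, VWF was at most 0.111 CPM, but PECAM1 was 3.57 CPM in the controls and 3.43 CPM after knockdown. The mesenchymal marker VIM was 7778 CPM in the controls and 7064 CPM after knockdown and was not called. FN1 and ZEB1 were not called either, at 2362 and 50.7 CPM in the controls and 2683 and 53.9 CPM after knockdown. CD44 was called lower, from 2158 to 1815 CPM. The estrogen receptor gene ESR1 was at most 0.156 CPM, whereas ERBB2 was 77.9 CPM in the controls and 78.2 CPM after knockdown. The progesterone receptor gene PGR was 2.86 CPM in the controls and 3.80 CPM after knockdown and was not called. Replicate libraries differed beyond counting noise, and shCCN3 library 2 stood furthest from its group, with chi-square statistics per degree of freedom of 37.1 and 45.2 against the other shCCN3 libraries, compared with 7.02 to 22.1 for all other pairs within a group.

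All 40 genes passed the filter on low counts and entered the test. A gene was called when its adjusted p was under 0.05 in edgeR's quasi-likelihood test, adjusted by the Benjamini-Hochberg method across 17419 genes. Of the 40 genes, 24 were called, 23 higher and 1 lower in shCCN3 cells, whereas 33.4% of all tested genes were called, 16.2% higher and 17.3% lower. The groups did not overlap for 27 of the 40 genes, against 46.3% of all tested genes. A called difference of at least 1.5-fold was found for 12 of the 40 genes, all higher in shCCN3 cells, against 15.7% of all tested genes in either direction. The median log2 fold change of the 40 genes was 0.38, and that of all tested genes was 0.01. In bulk RNA, a change in every cell and a change in some of the cells cannot be told apart. The genes that rose lay mainly among the transcription factors and the amino acid and one-carbon enzymes, where 13 of 14 were called higher. Among the ER chaperones, lectin chaperones, protein disulfide isomerases and ER-associated degradation genes, 4 of 17 were called higher and 1 was called lower.

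**Figure D1:**
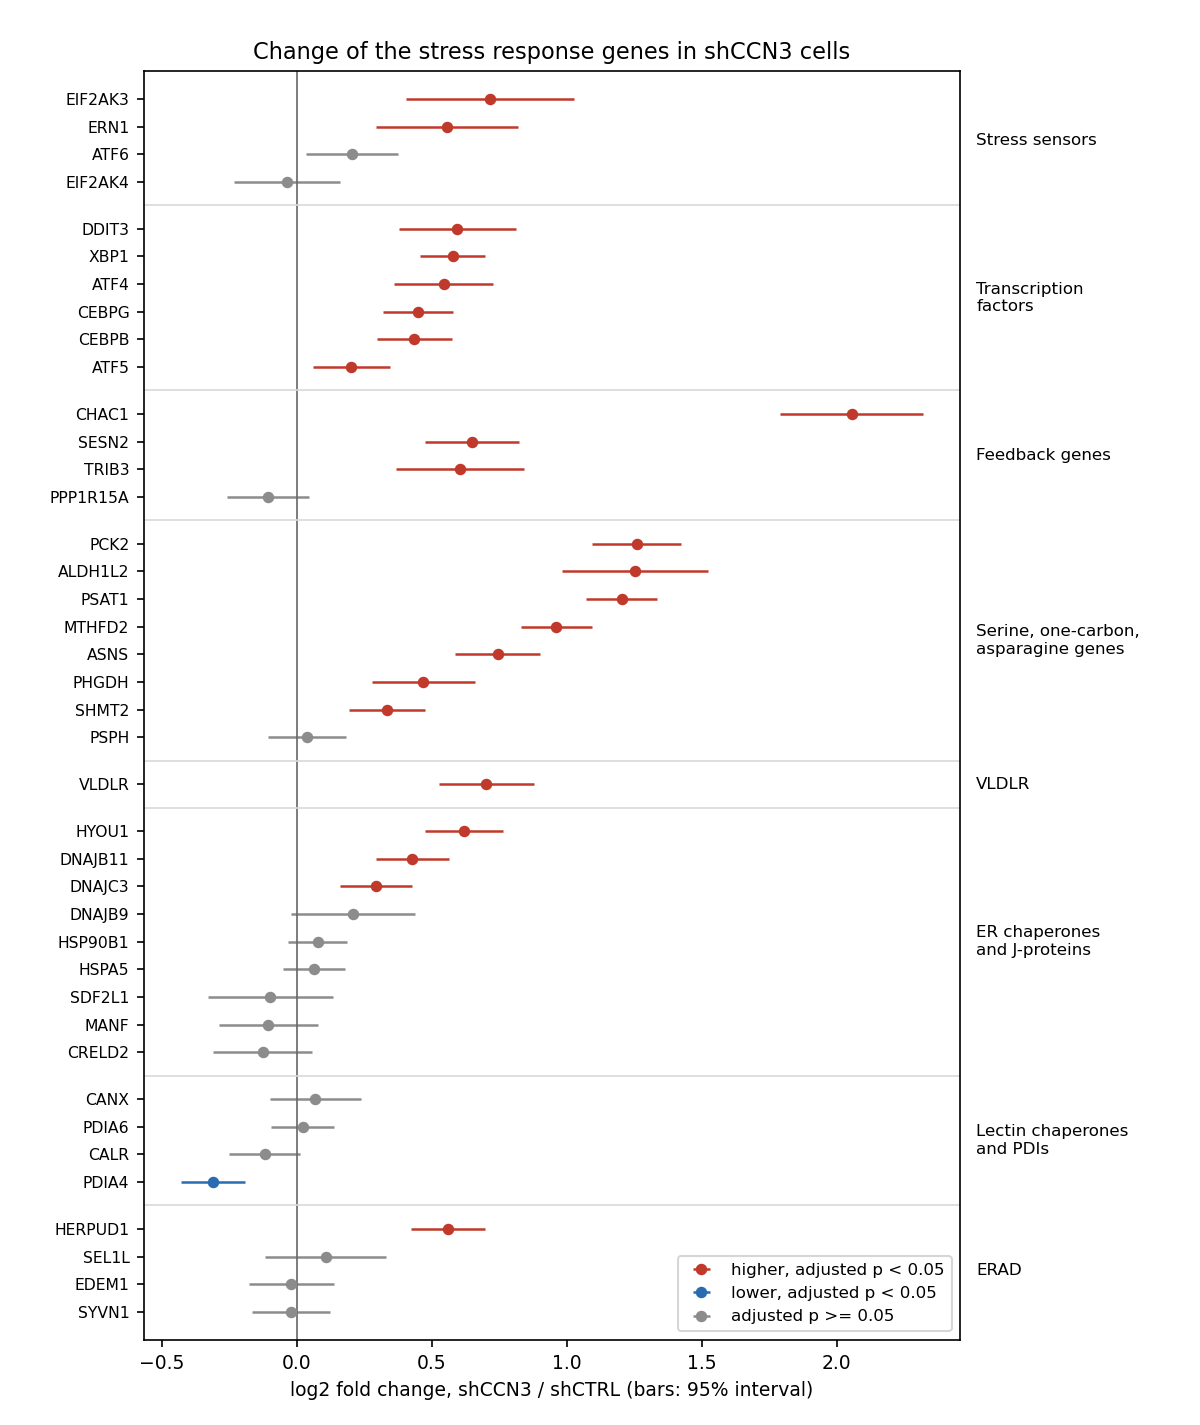
The log2 fold change of each of the 40 genes (shCCN3 over shCTRL, with 95% confidence intervals) is drawn by role, coloured by whether the gene was called higher, called lower or not called. CHAC1 lies furthest to the right at 2.05, and PDIA4 is the single called gene to the left of 0, at -0.31.

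The sensors were divided. EIF2AK3, which encodes the ER stress kinase PERK, was at 12.5, 10.4 and 8.97 CPM in the shCTRL libraries and at 19.0, 14.7 and 18.6 CPM in the shCCN3 libraries. Every shCCN3 library lay above every shCTRL library, and the log2 fold change was 0.72 (SE 0.138, adjusted p = 0.00354, edgeR). ERN1, which encodes the kinase and ribonuclease IRE1alpha that splices XBP1 mRNA, rose from 4.89 ± 0.448 to 7.18 ± 0.658 CPM (mean ± SD, 3 libraries each), a log2 fold change of 0.56 (adjusted p = 0.00541, edgeR). ATF6, the membrane-bound transcription factor that is cleaved under ER stress, was at 83.9, 82.0 and 81.4 CPM in the controls and 101, 84.4 and 99.7 CPM after knockdown. Its groups did not overlap, although shCCN3 library 2 lay close to the controls and the difference was not called (log2 fold change 0.20, adjusted p = 0.0669, edgeR). Without shCCN3 library 2, ATF6 was called higher (log2 fold change 0.29, adjusted p = 0.00142, edgeR). EIF2AK4, the kinase GCN2 that responds to uncharged tRNA, overlapped between the groups, with 66.1, 63.1 and 61.5 CPM in the controls and 64.9, 53.7 and 67.2 CPM after knockdown. The 95% interval of its fold change was 0.851 to 1.12.

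All 6 transcription factors were called higher (median log2 fold change 0.50), against 16.2% of all tested genes. ATF4, the central activator of the integrated stress response, was at 322, 334 and 356 CPM in the controls and 485, 547 and 444 CPM after knockdown. The groups were separate, with a log2 fold change of 0.54 (SE 0.0817, adjusted p = 0.000858, edgeR). The ATF4 pseudogene ATF4P3, which may share reads with ATF4, had 59, 61 and 63 counts in the controls and 96, 99 and 67 counts after knockdown. DDIT3, which encodes CHOP, a stress factor linked to cell death, was at 11.5, 11.7 and 13.2 CPM in the controls and 17.5, 20.4 and 17.2 CPM after knockdown, a log2 fold change of 0.59. XBP1, whose spliced form drives ER chaperone and lipid genes, rose from 112 ± 2.83 to 167 ± 1.53 CPM (mean ± SD, 3 libraries each), a log2 fold change of 0.58 with the lowest adjusted p of the 6 (4.64e-05, edgeR). The C/EBP factors that pair with ATF4 and CHOP moved by similar amounts. CEBPB rose from 73.8 ± 1.88 to 99.8 ± 5.04 CPM and CEBPG from 45.2 ± 1.18 to 61.7 ± 1.53 CPM (mean ± SD, 3 libraries each), with log2 fold changes of 0.44 and 0.45. ATF5, which is translated under stress by a mechanism like that of ATF4, had the smallest change of the 6, at 65.6, 69.8 and 66.2 CPM in the controls and 79.0, 80.1 and 72.8 CPM after knockdown (log2 fold change 0.20, adjusted p = 0.0345, edgeR). Its call was lost in 6 of 13 alternative fits, 4 of which left out 1 library.

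Of the 4 genes grouped under feedback, 3 were called higher, against 16.2% of all tested genes. The group holds TRIB3 and PPP1R15A, which act back on the pathway, and the stress-induced genes CHAC1 and SESN2. CHAC1, a glutathione-degrading enzyme induced by ATF4, had the largest change of the 40 genes. It was at 6.11, 6.84 and 7.45 CPM in the shCTRL libraries and 28.0, 32.1 and 24.7 CPM in the shCCN3 libraries, a 4.15-fold difference with a 95% interval of 3.46 to 4.99 (log2 fold change 2.05, SE 0.117, adjusted p = 2.65e-06, edgeR). The lowest shCCN3 library was thus well above the highest shCTRL library. SESN2, a stress-induced inhibitor of mTORC1, was at 16.9, 17.2 and 17.1 CPM in the controls and 25.9, 29.2 and 25.1 CPM after knockdown, with a log2 fold change of 0.65. TRIB3, a pseudokinase that restrains ATF4 and CHOP, rose from 28.0 ± 3.16 to 42.6 ± 4.85 CPM (mean ± SD, 3 libraries each; log2 fold change 0.60, adjusted p = 0.00198, edgeR). PPP1R15A, which encodes GADD34, the phosphatase subunit that reverses eIF2alpha phosphorylation, did not follow them. It was at 144, 148 and 154 CPM in the controls and 137, 149 and 129.5 CPM after knockdown, the groups overlapped, and the adjusted p was 0.272 (edgeR).

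**Figure D2:**
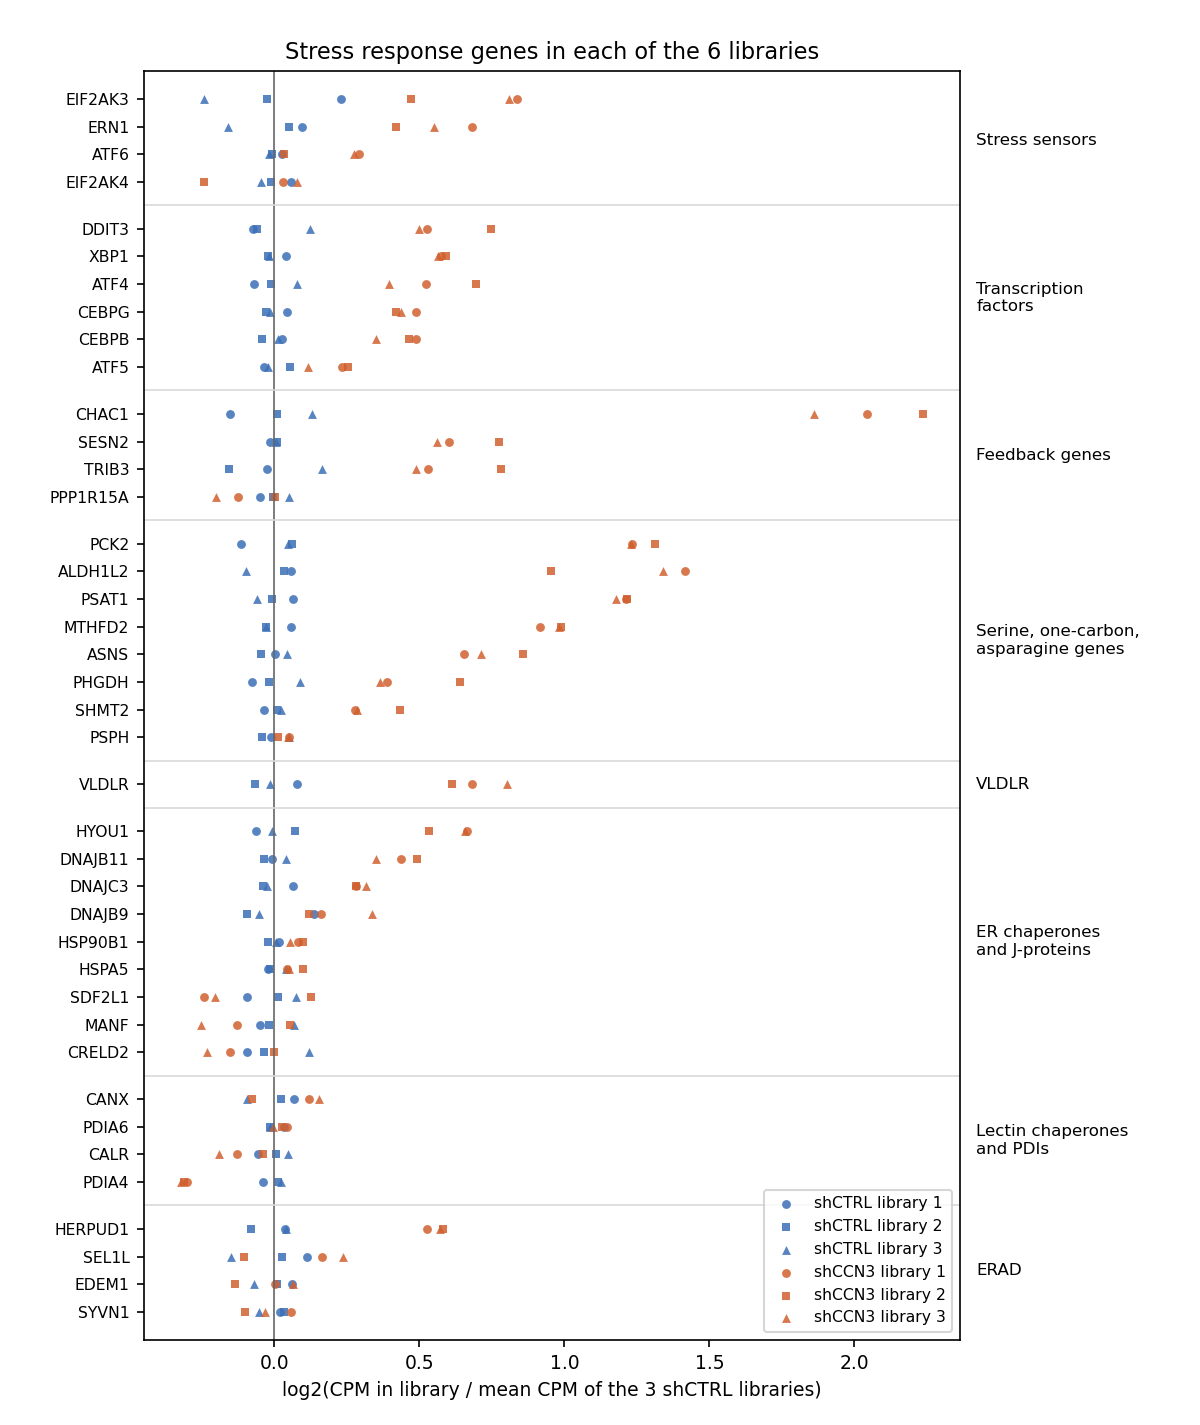
The level of each of the 40 genes in the 6 libraries is shown relative to its own shCTRL mean on a log2 scale, with shCTRL and shCCN3 libraries in different colours. The shCCN3 points of CHAC1, PSAT1, PCK2 and ALDH1L2 lie furthest above the controls. Those of the ER chaperone genes HSPA5 and HSP90B1 lie close to the controls.

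Among the enzymes of serine, one-carbon and asparagine metabolism, 7 of 8 were called higher, against 16.2% of all tested genes. Their median log2 fold change was 0.85. PSAT1, the transaminase of serine synthesis, was at 89.5, 85.1 and 82.1 CPM in the controls and 198, 199 and 194 CPM after knockdown. The groups were far apart, with a 2.30-fold difference (95% interval 2.103 to 2.52, adjusted p = 9.99e-07, edgeR). PCK2, the mitochondrial phosphoenolpyruvate carboxykinase, was at 17.4, 19.7 and 19.5 CPM in the controls and 44.3, 46.8 and 44.2 CPM after knockdown, a 2.39-fold difference (95% interval 2.13 to 2.68). ALDH1L2, the mitochondrial enzyme that oxidises formyl-tetrahydrofolate, was at 13.4, 13.1 and 12.01 CPM in the controls and 34.3, 24.9 and 32.5 CPM after knockdown, a 2.38-fold difference (95% interval 1.97 to 2.87). MTHFD2, the mitochondrial methylene-tetrahydrofolate dehydrogenase, nearly reached the same size, with 69.3, 65.3 and 65.3 CPM in the controls and 126, 132 and 131 CPM after knockdown (log2 fold change 0.96, adjusted p = 3.62e-06, edgeR).

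ASNS, the asparagine synthetase, was at 51.7, 50.01 and 53.3 CPM in the controls and 81.3, 93.7 and 84.6 CPM after knockdown, with no overlap (log2 fold change 0.74, SE 0.0695, adjusted p = 4.97e-05, edgeR). Its pseudogene ASNSP1 had 40, 37 and 37 counts in shCTRL cells and 225, 218 and 219 counts in shCCN3 cells, and reads of such copies may be split between the loci. PHGDH, which opens the serine pathway from glycolysis, rose from 129 ± 7.69 to 179 ± 19.6 CPM (mean ± SD, 3 libraries each; log2 fold change 0.47). SHMT2, which passes a carbon unit from serine to folate in mitochondria, rose from 148 ± 3.13 to 187 ± 11.6 CPM (mean ± SD, 3 libraries each; log2 fold change 0.33, adjusted p = 0.00295, edgeR). The exception was PSPH, the phosphatase of the last step of serine synthesis, with 26.5, 25.9 and 27.6 CPM in the controls and 27.6, 26.9 and 27.5 CPM after knockdown. Those groups overlapped, and the 95% interval of the fold change was 0.928 to 1.13. VLDLR, a lipoprotein receptor that PERK and ATF4 can induce, was at 19.1, 17.3 and 17.9 CPM in the controls and 29.03, 27.7 and 31.5 CPM after knockdown and was called higher (log2 fold change 0.70, adjusted p = 0.000144, edgeR).

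Among the ER chaperones and their co-factors, 3 of 9 were called, all higher, or 33.3%. Of all tested genes 33.4% were called in either direction and 16.2% higher. The difference from the other roles was not tested. HSPA5, which encodes BiP, the main ER chaperone and a standard readout of the unfolded protein response, was at 1205, 1211 and 1258 CPM in the controls and 1263, 1311 and 1267 CPM after knockdown. The shCCN3 libraries all lay above the shCTRL libraries, but by little, and the 95% interval of the fold change was 0.966 to 1.13 (adjusted p = 0.371, edgeR). HSP90B1, the ER HSP90 protein GRP94, was likewise at 1494, 1458 and 1485 CPM in the controls and 1563, 1586 and 1535 CPM after knockdown, with a 95% interval of 0.979 to 1.14. HYOU1, a nucleotide exchange factor for BiP, was at 217, 239 and 226 CPM in the controls and rose to 360.3, 329 and 358 CPM after knockdown, with a log2 fold change of 0.62 (adjusted p = 8.76e-05, edgeR). Both other called genes of this role encode J-domain co-chaperones. DNAJB11 rose from 161 ± 4.27 to 216 ± 10.6 CPM and DNAJC3 from 50.04 ± 1.96 to 61.3 ± 0.832 CPM (mean ± SD, 3 libraries each), with log2 fold changes of 0.43 and 0.29.

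DNAJB9, a J-domain protein that acts on IRE1alpha, was 8.87 ± 0.764 CPM in the controls and 10.2 ± 0.835 CPM after knockdown (mean ± SD, 3 libraries each; log2 fold change 0.21, adjusted p = 0.149, edgeR). SDF2L1, CRELD2 and MANF, small ER proteins that are commonly induced by ER stress, all overlapped between the groups. SDF2L1 was 38.6 ± 2.27 CPM in the controls and 36.1 ± 5.26 CPM after knockdown, CRELD2 was 95.6 ± 7.34 CPM in the controls and 87.6 ± 7.25 CPM after knockdown, and MANF was 153 ± 6.66 CPM in the controls and 143 ± 15.4 CPM after knockdown (mean ± SD, 3 libraries each). Their log2 fold changes were -0.10, -0.13 and -0.10, and none was called. In SDF2L1, CRELD2 and MANF, shCCN3 library 2 was the highest shCCN3 library, at 42.2, 95.6 and 159 CPM. For each of them, shCCN3 libraries 1 and 3 lay below every shCTRL library.

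PDIA4, a protein disulfide isomerase, was the one gene of the 40 that was called lower. It was at 360.1, 373 and 376 CPM in the controls and 300.3, 298 and 296 CPM after knockdown, and it fell by 0.31 on the log2 scale (SE 0.052, adjusted p = 0.00159, edgeR). PDIA4 lies on chromosome 7, where the median log2 fold change was -0.43, so its change was smaller than that of its chromosome. CALR and CANX, the lectin chaperones calreticulin and calnexin, overlapped between the groups and had log2 fold changes of -0.12 and 0.07. PDIA6, a further isomerase, was 442 ± 8.53 CPM in the controls and 449.6 ± 7.64 CPM after knockdown (mean ± SD, 3 libraries each), with a 95% interval of the fold change of 0.937 to 1.10. Without shCCN3 library 2, 5 of the 40 genes were called lower in place of 1. They were PDIA4 together with PPP1R15A, SDF2L1, MANF and CALR, with log2 fold changes of -0.31, -0.16, -0.22, -0.19 and -0.16, and in that fit 20.5% of all tested genes were called lower.

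Of the genes of ER-associated degradation, HERPUD1 rose. This membrane protein of the ubiquitin ligase complex was at 43.8, 40.4 and 43.9 CPM in the controls and 61.5, 64.0 and 63.4 CPM after knockdown, without overlap (log2 fold change 0.56, adjusted p = 0.00013, edgeR). SEL1L and SYVN1, the adaptor and the ligase HRD1 of the same complex, overlapped between the groups, with log2 fold changes of 0.11 and -0.02. EDEM1, which directs misfolded glycoproteins to degradation, was 85.9 ± 3.89 CPM in the controls and 84.7 ± 5.94 CPM after knockdown (mean ± SD, 3 libraries each), and the 95% interval of its fold change was 0.884 to 1.10.

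The promoters were searched for exact matches to sequence elements by which the pathways are known. The 250 bases before the start site were taken from RefSeq (GRCh38.p14) for 37 of the 40 genes and searched on both strands. An element that departs from the pattern or lies outside these bases is missed, so a gene without a match may still carry one. The ER stress element (ERSE), recognised by ATF6 with NF-Y, was searched as CCAAT, any 9 bases and CCACG, and ERSE-II as ATTGG, any base and CCACG. The C/EBP-ATF response element (CARE), bound by ATF4 with C/EBP factors, was searched as TGATG, any base and AA. The XBP1 element (UPRE) was searched as TGACGTGG. ERSE was present in 6 of the 37 promoters and in 0.0806% of 27305 promoters, ERSE-II in 3 and in 0.0513%, CARE in 3 and in 3.19%, and UPRE in 1 and in 0.667%. The 40 genes were picked as genes of these pathways, so no conclusion is drawn from these shares. Of the 9 genes with ERSE or ERSE-II, 3 were called higher (XBP1, HYOU1 and HERPUD1) and 6 were not called (HSPA5, HSP90B1, SDF2L1, CRELD2, CALR and CANX). The 3 genes with CARE (CHAC1, ASNS and HERPUD1) were called higher. Among all tested genes 33.4% were called in either direction, near the share of genes with ERSE or ERSE-II. However, 16.2% of all tested genes were called higher, and all 3 called genes with ERSE or ERSE-II were higher. The motif groups were small and were not compared by a test. A match is a description of the sequence and does not show that a factor was bound there.

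The promoters below are printed 5′ to 3′ on the strand of the gene, with the matches in capitals, for the 3 genes with CARE and for contrasting genes with an ER stress element. CHAC1 (chr15:40953221-40953470, plus strand) holds CARE on the opposite strand 209 to 202 bases before the start. ASNS (chr7:97872409-97872658, minus strand) holds CARE 68 to 61 bases before it. HERPUD1 (chr16:56931892-56932141, plus strand) holds CARE on the opposite strand and ERSE-II downstream of it. HYOU1 (chr11:119057206-119057455, minus strand) has 2 ERSE-II matches, the upstream one overlapping a UPRE match. HSPA5 (chr9:125241344-125241593, minus strand) holds ERSE 66 to 48 bases before the start, and HSP90B1 (chr12:103930160-103930409, plus strand) holds 2 ERSE matches.
CHAC1: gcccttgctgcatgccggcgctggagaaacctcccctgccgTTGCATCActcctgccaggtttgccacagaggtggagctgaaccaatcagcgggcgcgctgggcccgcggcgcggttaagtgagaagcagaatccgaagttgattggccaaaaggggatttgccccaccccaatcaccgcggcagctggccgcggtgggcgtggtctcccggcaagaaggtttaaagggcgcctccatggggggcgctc
ASNS: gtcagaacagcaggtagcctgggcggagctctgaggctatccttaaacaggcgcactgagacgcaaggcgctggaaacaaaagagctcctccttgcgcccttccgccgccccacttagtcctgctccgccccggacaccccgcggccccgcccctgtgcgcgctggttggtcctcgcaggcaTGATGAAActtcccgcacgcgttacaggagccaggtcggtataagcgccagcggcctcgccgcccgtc
HERPUD1: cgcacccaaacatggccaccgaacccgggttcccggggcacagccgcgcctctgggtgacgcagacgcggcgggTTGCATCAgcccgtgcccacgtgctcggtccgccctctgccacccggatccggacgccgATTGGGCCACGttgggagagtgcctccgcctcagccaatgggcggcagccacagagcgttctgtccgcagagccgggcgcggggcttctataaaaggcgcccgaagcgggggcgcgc
HYOU1: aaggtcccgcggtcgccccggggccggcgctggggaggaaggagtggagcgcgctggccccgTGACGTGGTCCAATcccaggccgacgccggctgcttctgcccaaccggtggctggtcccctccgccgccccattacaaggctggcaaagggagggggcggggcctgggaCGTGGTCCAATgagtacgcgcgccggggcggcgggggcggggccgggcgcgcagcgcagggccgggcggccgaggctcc
HSPA5: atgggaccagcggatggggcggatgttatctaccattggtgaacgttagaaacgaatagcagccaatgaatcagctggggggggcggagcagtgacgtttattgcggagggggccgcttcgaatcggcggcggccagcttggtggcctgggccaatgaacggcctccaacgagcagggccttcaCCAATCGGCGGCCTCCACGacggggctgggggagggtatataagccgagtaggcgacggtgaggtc
HSP90B1: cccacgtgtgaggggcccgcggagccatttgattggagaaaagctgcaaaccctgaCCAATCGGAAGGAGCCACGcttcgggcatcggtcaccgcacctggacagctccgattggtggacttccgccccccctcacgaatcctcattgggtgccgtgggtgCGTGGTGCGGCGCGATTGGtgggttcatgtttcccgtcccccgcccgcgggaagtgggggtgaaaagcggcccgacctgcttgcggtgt

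Levels of different genes were compared as CPM per kilobase of merged exons. In shCTRL cells CALR was the highest of the 40 genes at 1041 CPM per kilobase, followed by HSP90B1 at 516, HSPA5 at 313 and CANX at 242, none of which was called. ATF4 was the fifth, at 134 CPM per kilobase in shCTRL cells and 196 in shCCN3 cells. The lowest were ERN1 at 0.499, ALDH1L2 at 1.70, VLDLR at 1.97 and EIF2AK3 at 2.198 CPM per kilobase, all of which were called higher. The 95% interval of the fold change was 1.32 to 2.04 for EIF2AK3, wider than the 0.966 to 1.13 of HSPA5. The SE on the log2 scale was 0.138 for EIF2AK3. It was smaller for the genes of lower level, at 0.116 for ERN1, 0.12 for ALDH1L2 and 0.0782 for VLDLR.

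**Figure D3:**
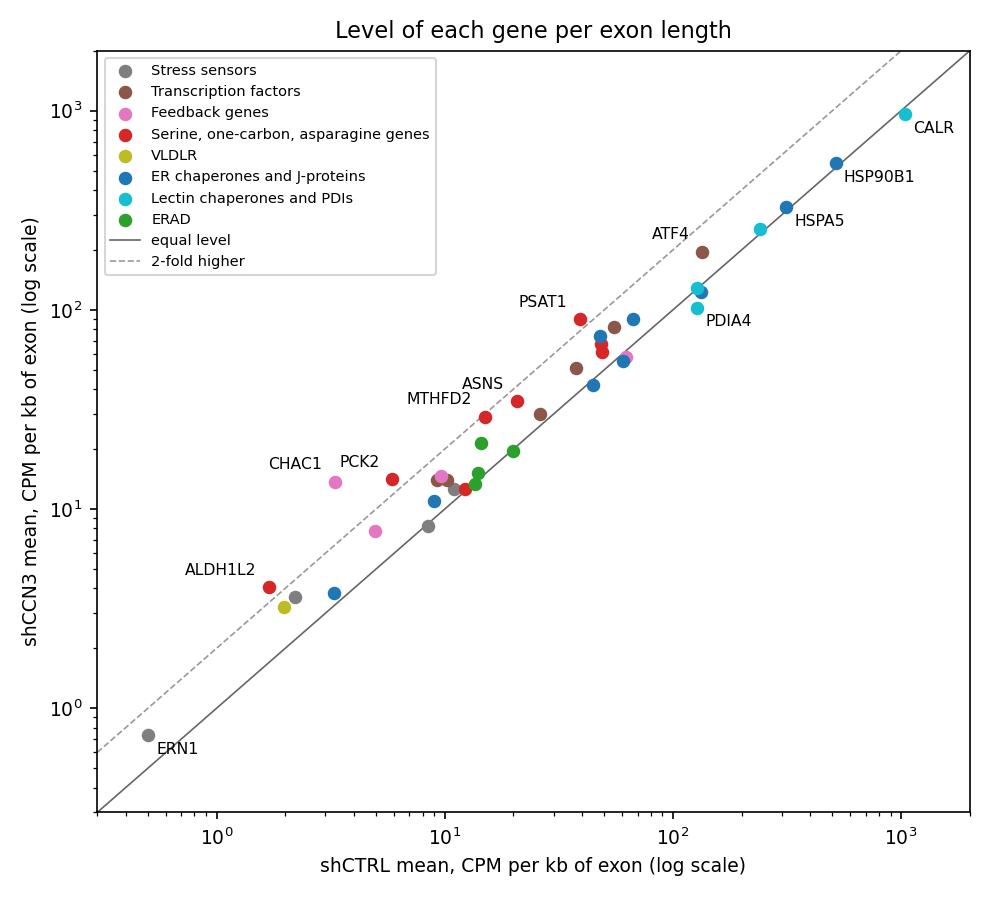
The mean level of each gene in shCCN3 cells is plotted against that in shCTRL cells, both in CPM per kilobase of exon on log axes, coloured by role, with lines for equal and for 2-fold higher levels. CHAC1, PCK2, ALDH1L2 and PSAT1 lie above the 2-fold line, whereas CALR, HSP90B1 and HSPA5 at the top right lie close to the line of equal levels.

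The position of the genes on the chromosomes was also considered, because the 821 tested genes of chromosome 7 showed a median log2 fold change of -0.43, with 697 of them lower in shCCN3 cells. ASNS, PSPH, DNAJB9 and PDIA4 lie on chromosome 7, and none of these 4 fell below its median. Relative to that median their log2 fold changes were 1.17, 0.47, 0.64 and 0.12. Of the 40 genes, 31 lie on chromosomes whose median was within 0.1 of 0, an alternative that was added after the data were seen. Of those 31, 18 were called higher, 0 were called lower and 13 were not called in edgeR's test. Of the other 9 genes, 5 were called higher and 1 lower. The part of the chromosome-wide differences in the calls was not tested.

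**Figure D4:**
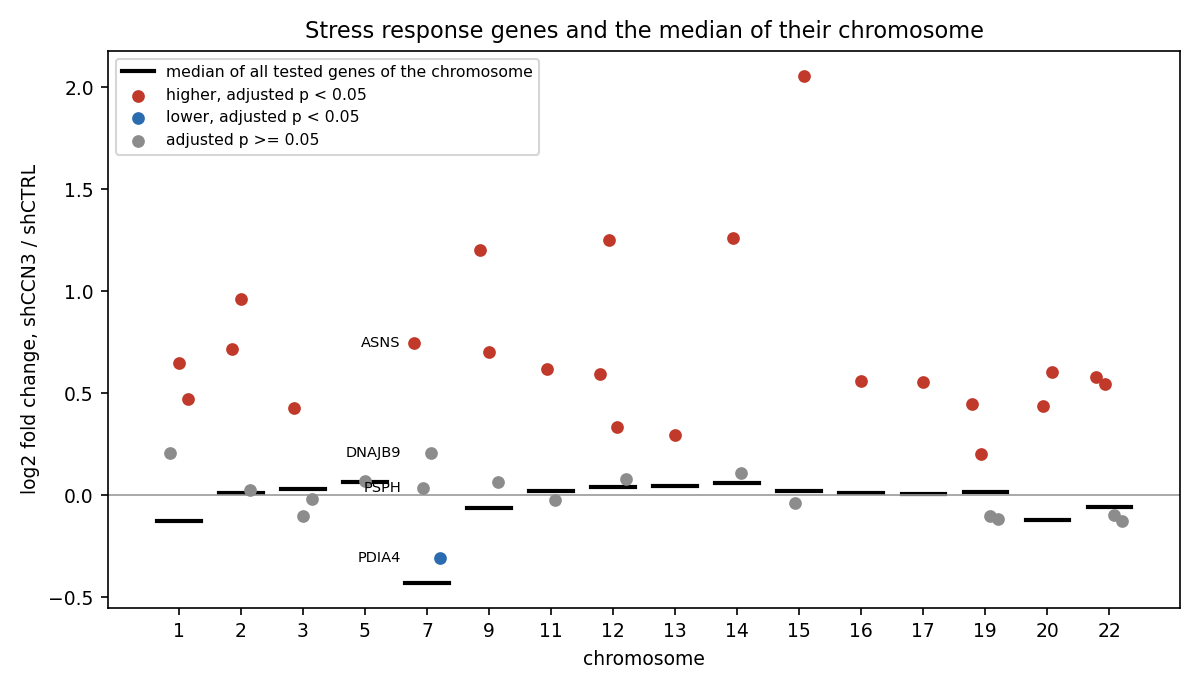
Each point is the log2 fold change of 1 of the 40 genes at its chromosome, and each black bar is the median of all tested genes of that chromosome. On chromosome 7, with the lowest bar at -0.43, all 4 genes lie above the bar.

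The spread within the groups was small for most of the genes. The median coefficient of variation was 4.12% among shCTRL libraries and 6.83% among shCCN3 libraries. The outlying shCCN3 library 2 was the highest shCCN3 library for 22 of the 40 genes and for 39.6% of all tested genes, and for 15 of the 23 genes called higher. It was the lowest for 14 of the 40 genes and for 42% of all tested genes. Without it 24 of the 40 genes were called higher and 5 lower, against 20% and 20.5% of all tested genes.

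Other genes of the pathways were taken from lists that share no gene with the 40, with LONP1 in both the list of ATF4 and CHOP targets and the mitochondrial list. Of 26 further targets of ATF4 and CHOP, 17 were called higher and 3 lower, with a median log2 fold change of 0.47. Among all tested genes 16.2% were called higher and 17.3% lower. GDF15, a stress-induced cytokine, was at 0.669, 0.684 and 0.805 CPM in the controls and 4.24, 4.99 and 5.49 CPM after knockdown (log2 fold change 2.76). DDIT4, an inhibitor of mTORC1, rose from 48.3 ± 2.199 to 148 ± 8.44 CPM (mean ± SD, 3 libraries each; log2 fold change 1.62). FGF21, a stress-induced hormone, had 0, 0 and 2 counts in shCTRL libraries and 23, 15 and 18 counts in shCCN3 libraries, a ratio of 29.5 with an exact 95% interval of 7.80 to 249.7 that covers counting error only. CBS, an enzyme of cysteine synthesis, had a log2 fold change of 1.49, but reads may be split with its near-identical copy CBSL (1039, 1074 and 1162 counts in the controls and 3074, 2560 and 2957 after knockdown), so that both levels are uncertain, and the median of chromosome 21 was 0.23. CEBPA, a C/EBP factor of differentiation, fell from 2.16 ± 0.355 to 0.636 ± 0.112 CPM (mean ± SD, 3 libraries each).

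Of 20 cytosolic tRNA synthetases, 12 were called higher and 1 lower, at a median log2 fold change of 0.24. That is 65% called in either direction, beside 33.4% of all tested genes. WARS1, the tryptophan enzyme, which interferon also induces, was at 116, 116 and 120.1 CPM in the controls and 298, 288 and 292 CPM after knockdown (log2 fold change 1.32, adjusted p = 3.93e-07, edgeR). Of 18 further regulators of eIF2alpha, 3 were called higher and 4 lower, with a median of 0.05. Of 37 tested genes among 40 further genes of ER folding and degradation, 5 were called higher and 7 lower, with a median of -0.0033. Of 20 genes of the ER translocon, signal peptidase and signal recognition particle, 4 were called higher and 2 lower (median -0.08). The shares called in these lists were 38.9%, 32.4% and 30%, near the 33.4% of all tested genes. For the translocon list the number called ranged from 3 to 12 when 1 library was left out. It was 12 without shCCN3 library 2 and 3 without shCTRL library 2, shCTRL library 3 or shCCN3 library 1. Of 17 cytosolic heat shock genes, 7 were called higher and 3 lower (median 0.06), and without shCTRL library 3 the number called was 6. Of those called higher, HSPA1A, HSPA1B and HSP90AB1 lie on chromosome 6, and relative to its median their log2 fold changes were 0.12, 0.079 and 0.057. HSPA1A and HSPA1B are near-identical copies, so their separate levels are uncertain. Of 12 genes of the mitochondrial unfolded protein response, 1 was called higher and 0 lower, and without shCCN3 library 2 the number called was 3. Without that library 40.5% of all tested genes were called, and 23.4% to 27% in the other fits that left out 1 library.

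The further lists hold genes of chromosomes that moved as a whole. On chromosome 6 the median log2 fold change was 0.34, with 412 of 891 tested genes called higher. All 11 tested genes of the further lists on that chromosome were called higher, namely 3 of the ATF4 and CHOP targets (SESN1, MTHFD1L and VEGFA), 1 tRNA synthetase (VARS1), 2 of ER folding and degradation (ATF6B and TXNDC5), 2 of the translocon list (SEC63 and SSR1) and the 3 heat shock genes. Of the 7 on chromosome 7, 5 were called lower and 1 higher. None of the 40 genes lies on chromosome 6. The part of the chromosomes in the counts of these lists was not tested.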

How the data were processed

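RNA-seq was made from 3 shCTRL and 3 shCCN3 libraries of Hs578T cells with a stranded mRNA kit. The authors deposited raw read counts per gene, without normalization, listed by NCBI Gene ID and symbol. The submitters' processing notes name bcl2fastq 2.20.0, Trimmomatic, HISAT2 2.1.0, StringTie, DESeq2 and GRCh38, without their roles. The annotation and the strand setting of the counting are not given in the sources used here, so overlapping genes and near-identical copies are uncertain.

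Groups came from the sample labels. CPM, log2 fold changes and calls came from edgeR 4.0.16 (R 4.3.3), using TMM factors, the filter by group (17419 genes kept), quasi-likelihood tests and Benjamini-Hochberg adjusted p-values. The sample labels do not state whether equally numbered libraries are paired. Such libraries showed little shared deviation, with correlations of 0.0891, -0.0256 and -0.0657 across genes, and the main fit does not pair them. With 3 libraries a group, p-values set the difference between the groups against the spread between these libraries. They do not cover variation between separately made cell lines.

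The 40 genes and the further lists were chosen with earlier results of these data known. All 40 were named. Of each further list, genes called with at least a 2-fold difference were named, at most the 4 largest in each direction. Chromosomes came from the RefSeq gene table (GRCh38.p14, 40 of 40 matched), exon lengths from GENCODE release 29, and promoter sequences from RefSeq. Alternatives were other normalizations and filters, DESeq2 1.42.0, limma-voom (limma 3.58.1), a replicate block, stricter thresholds and each library left out. The scripts were tested on simulated data.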

Additional observations from a re-analysis of the deposited data

How the results depend on the processing

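Of the 24 called genes, 23 kept their direction and call in all 13 alternative fits, and ATF5 lost its call without the filter on low counts (adjusted p = 0.0512, edgeR), with the replicate block and in 4 of the fits that left out 1 library. With the limit of 1.5-fold, 12 of the 40 genes were called, against 15.7% of all tested genes. With 1 library left out, 23 to 29 genes were called, 22 to 24 higher and 1 to 5 lower, and the 5 came without shCCN3 library 2. In these fits 23.4% to 40.5% of all tested genes were called, the 40.5% without shCCN3 library 2. The number called ranged up to 5 for the ER chaperones, up to 2 for the lectin chaperones and isomerases, from 3 to 12 for the translocon list, from 6 to 10 for cytosolic heat shock genes and up to 3 for the mitochondrial list, where DESeq2 called 2. The fit with the replicate block called 23 of the 40 genes, 3 translocon genes and 28.1% of all tested genes. Equally numbered libraries showed little shared deviation. Reversed signs were found for uncalled genes only. With 1 library left out, the log2 fold change lay between -0.099 and 0.058 for EIF2AK4, between -0.065 and 0.017 for SYVN1 and between -0.064 and 0.037 for EDEM1, the highest of each without shCCN3 library 2, and EDEM1 was at 0.01 without shCTRL library 1. The cause was not tested. Small changes of low genes are limited by depth, as 3 counts equal 0.0435 to 0.054 CPM. EIF2AK4, SYVN1 and EDEM1 were far above that limit, with 2985 to 4543, 3339 to 4618 and 4346 to 6151 counts per library.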
